A study of Mus musculus with 6 samples.

Results

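Arid3a occupancy was described at 10 genes that make or remove reactive oxygen species: the NADPH oxidase genes Nox4, Cyba and Rac1, the superoxide dismutase genes Sod1, Sod2 and Sod3, the catalase gene Cat, the regulator genes Nfe2l2 and Keap1, and the heme oxygenase gene Hmox1. They are 10 of 21887 protein-coding genes in the annotation used. The peaks taken were those of all 6 libraries that overlap the mm10 gene body or the 10 kb on either side of it. Peaks of different libraries that share at least 1 bp were merged into regions, and 38 of 79295 regions fell in the windows of these genes.

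The assay was CUT&Tag, in which an antibody against Arid3a, a DNA-binding protein of the AT-rich interaction domain family, directs a transposase to cut the DNA around it. It was run on vascular smooth muscle cells (VSMCs) of the mouse, primary cells bought from a supplier. The 3 siRNA-labelled libraries came from cells transfected with si-Arid3a#1, si-Arid3a#2 and si-Arid3a#3, a different siRNA in each, and the 3 NC-labelled libraries from cells given a negative control siRNA. All were assayed with 10000 cells, and the transfection ran for 24 h. The protocol also describes an angiotensin II model of aortic aneurysm, with an exposure of 36 h, and the labels do not say which libraries, if any, were exposed. Nor do they tell whether each library had a culture of its own, so the p-values reflect no more than the variation among these 6 libraries, part of which may be technical. The level of Arid3a itself in these cells and a library made without the antibody were not analysed here.

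The names given to the peaks go against the labels: in each of the 6 lists, 100% of them carry the library name of the opposite group, with the same number. Groups are given as the sample labels have them, and every direction below turns round if the peak names are right. The lists held 43834, 50333 and 51682 peaks in siRNA-labelled libraries 1, 2 and 3, and 47789, 49653 and 50047 peaks in NC-labelled libraries 1, 2 and 3. The background coverage, solved from the peak caller's columns in place of the unknown sequencing depth, was 0.475, 0.482 and 0.538 fragments per base in the siRNA-labelled and 0.670, 0.673 and 0.621 in the NC-labelled libraries, so coverage and group cannot be told apart. The median summit held 16 fragments in each siRNA-labelled library and 18 to 20 in the NC-labelled ones. Over 5675 deep regions, siRNA-labelled libraries 2 and 3 were as close (mean chi-square 0.766 per region) as the 3 NC-labelled pairs (0.756 to 0.827). siRNA-labelled library 1 lay further from the other siRNA-labelled libraries (1.16 and 1.12). Summits are the highest points of peaks, so these values rank the pairs but have no set reference for sampling noise. Pairs across the groups gave 1.05 to 1.55, and the lowest was siRNA-labelled library 1 with NC-labelled library 3. Of 8 smooth muscle genes, Acta2, Tagln and Smtn had a peak near their start in all 6 libraries and Myh11 and Des in none, while Cnn1 and Myocd had one in 1 siRNA-labelled and 3 NC-labelled libraries and Lmod1 in 1 NC-labelled library. Of 14 markers of endothelium, leukocytes and fibroblasts, Cd68 and Col1a1 had one in all 6 libraries, and 9 in none, Pecam1, Cdh5, Ptprc and Pdgfra among them. The endothelial genes Erg, Tek and Kdr had one in 2, 2 and 0 siRNA-labelled libraries, against 0, 2 and 1 NC-labelled ones. A peak describes chromatin and not expression of these genes.

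NADPH oxidases move electrons from NADPH to oxygen. Nox4 is the catalytic subunit that is prominent in smooth muscle and releases mainly hydrogen peroxide, Cyba encodes p22phox, the membrane partner that Nox4 needs, and Rac1 is a small GTPase that activates other members of the family. Superoxide dismutases turn superoxide into hydrogen peroxide, which catalase splits into water and oxygen. Keap1 holds the transcription factor NRF2, the product of Nfe2l2, for degradation until oxidants modify it, and NRF2 then switches on antioxidant genes such as Hmox1.

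The DNA around 4 of the annotated starts is shown because these starts span the range of the peak data: the broad strong peak of Nfe2l2, the moderate peaks of Sod1 and Keap1, and the start of Nox4, where 1 library had a weak peak. The sequences run 5′ to 3′ on the strand of the gene, from 250 bases before to 50 bases after the start, and come from RefSeq on GRCm38.p6, the assembly of mm10. Entries matched 7 of the 10 genes. Capitals mark matches, on either strand, to the letters ATTAAA or ATCAAA (cores of ARID3A motifs), TGACNNNGC (antioxidant response element, which NRF2 binds), TGANTCA (AP-1), CCAAT (the box of that name), GGGCGG (GC box) and TATAAA (the core promoter element bound by TBP); matches can overlap.
Nfe2l2, minus strand, chr2:75704614-75704913: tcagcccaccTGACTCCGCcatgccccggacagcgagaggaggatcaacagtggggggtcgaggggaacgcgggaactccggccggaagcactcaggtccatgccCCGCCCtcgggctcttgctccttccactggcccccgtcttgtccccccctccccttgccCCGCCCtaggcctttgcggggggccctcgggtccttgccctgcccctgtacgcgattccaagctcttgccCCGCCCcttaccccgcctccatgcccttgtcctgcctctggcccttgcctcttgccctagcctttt
Sod1, plus strand, chr16:90220512-90220811: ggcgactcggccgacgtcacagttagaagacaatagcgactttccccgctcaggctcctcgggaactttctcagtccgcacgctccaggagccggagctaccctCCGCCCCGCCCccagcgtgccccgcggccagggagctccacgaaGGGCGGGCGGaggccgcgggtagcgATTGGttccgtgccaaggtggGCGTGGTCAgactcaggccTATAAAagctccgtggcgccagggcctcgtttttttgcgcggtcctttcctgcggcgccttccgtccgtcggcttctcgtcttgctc
Keap1, minus strand, chr9:21239283-21239582: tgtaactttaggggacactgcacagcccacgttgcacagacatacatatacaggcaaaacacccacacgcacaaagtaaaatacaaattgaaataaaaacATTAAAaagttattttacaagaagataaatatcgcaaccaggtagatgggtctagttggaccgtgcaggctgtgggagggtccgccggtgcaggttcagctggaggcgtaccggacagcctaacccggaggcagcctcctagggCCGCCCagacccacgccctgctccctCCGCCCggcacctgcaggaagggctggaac
Nox4, plus strand, chr7:87246399-87246698: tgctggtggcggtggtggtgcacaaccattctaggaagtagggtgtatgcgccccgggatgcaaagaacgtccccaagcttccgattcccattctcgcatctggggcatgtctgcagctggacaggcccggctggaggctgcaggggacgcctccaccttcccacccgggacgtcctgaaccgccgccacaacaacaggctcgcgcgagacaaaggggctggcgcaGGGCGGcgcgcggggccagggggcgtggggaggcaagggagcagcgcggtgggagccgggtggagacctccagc

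GC boxes were found in all 7 of these promoters, against 46.2% of 21263 promoters of the same length. The letters of the antioxidant response element occurred in 2 of the 7, Nfe2l2 at -240 to -232 and Sod1 at -56 to -48 from the start on the opposite strand, against 13.0% of all promoters. ATTAAA occurred in 1, Keap1 at -150 to -145, against 11.7%, and ATCAAA in none, against 10.0%. CCAAT occurred in 3 (Sod1, Sod2 and Cat, which had 4 copies), against 38.2%. TATAAA occurred only in Sod1 among the 7, at -37 to -32, against 12.6%, and the AP-1 letters in none, against 6.99%. The 7 promoters held between 53.3% G and C bases, in Keap1, and 68.7%, in Nfe2l2, against a median of 56.3%. A match is a description of letters and not a binding site.

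Of the 38 regions, 22 (57.9%) had a peak in all 6 libraries, against 37.3% of all regions, 9 (23.7%) in 1 library, against 30.2%, and 7 in 2 to 5 libraries. Where a library's peaks had to cover at least 50% of a region, 13 of the 38 were found in all 6 libraries. No region was one-sided: 0 of 38 were found in every siRNA-labelled library but in none of the NC-labelled ones, where 0.342% of all regions were, and 0 in every NC-labelled library but in none of the siRNA-labelled ones, where 0.608% were. With 38 regions and such backgrounds, counts of 0 are near the background and are no result about these genes, and 3 libraries against 3 cannot give an exact permutation p below 0.1. Of the 38 regions, 26, 29 and 29 had a peak in the siRNA-labelled libraries and 29, 29 and 26 in the NC-labelled libraries. Of the regions found in 1 library, 5 were in a siRNA-labelled and 4 in an NC-labelled one.

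**Figure D1:**
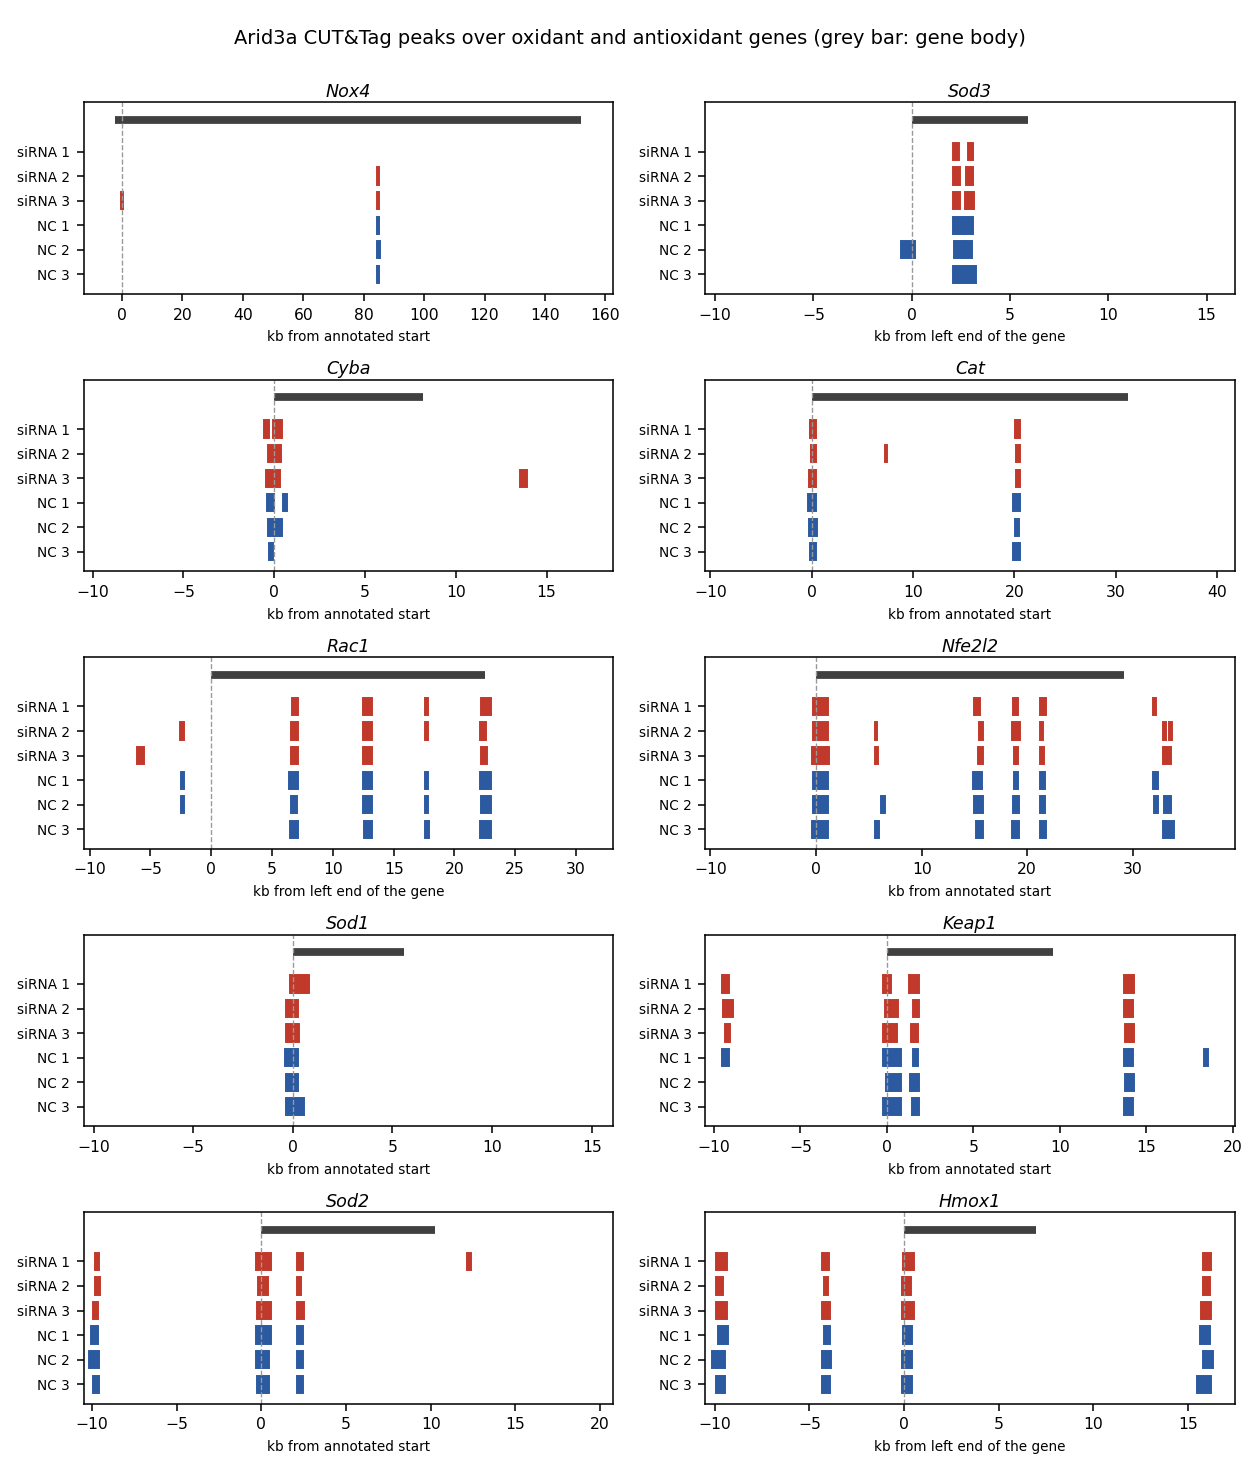
Peaks of each library (rows, siRNA-labelled in red above NC-labelled in blue) across each gene body (grey bar) and its flanks; the horizontal axis gives kb from the annotated start, or from the left end where no strand was used, and very narrow peaks are widened to be visible. The 22 regions with a peak in all 6 libraries stand as full columns, Hmox1 has only such columns, and Nox4 has none.

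Occupied positions lay at starts and ends, inside the genes and in the flanks. Of 10 regions over a start or an end, 8 had a peak in all 6 libraries, against 9 of 15 inside gene bodies and 5 of 13 in the flanks. A peak within 1 kb of the start was present in all 6 libraries at 6 of the 7 genes with a known strand, all but Nox4, against 46.0% of 17492 protein-coding genes with a promoter entry. The median fold of the 22 regions over local background was 6.60, against 7.34 over all regions in all 6 libraries, and their median width was 804.5 bp, against 799 bp. The fold and the −log10 q of each peak are the authors' own values, and percentiles below rank a peak by −log10 q within its own list. The −log10 q grows with coverage, which was higher in every NC-labelled library. No share of all regions is given for groups that separate in fold or −log10 q, so such separations are descriptions only.

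**Figure D2:**
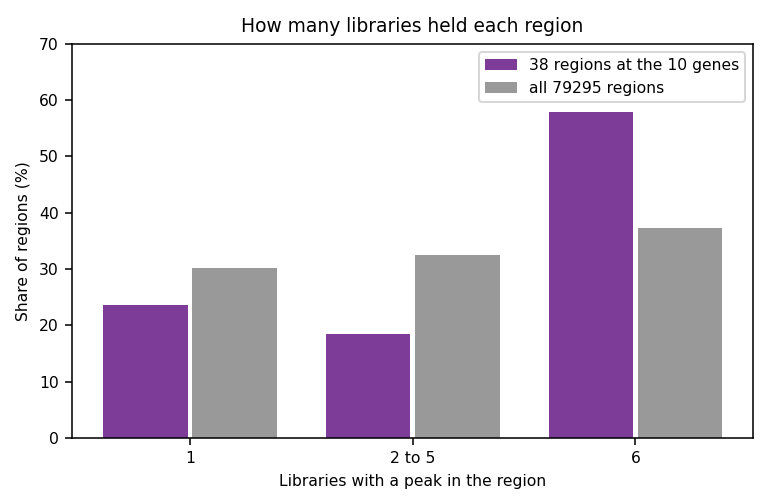
Share of regions (vertical axis, %) by the number of libraries that had a peak there, for the 38 regions at the 10 genes (purple, left) and all 79295 regions (grey, right). The share found in all 6 libraries is 57.9% at these genes and 37.3% over all regions.

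Among the oxidase genes, Nox4 had the fewest regions, and its summits held at most 10 fragments. Its body is the longest of the 10 (154.3 kb, chr7:87244430-87398710), and its window held 2 regions, neither present in all 6 libraries, where 62.4% of protein-coding genes have at least 1 such region. Over the start (chr7:87246571-87246880), siRNA-labelled library 3 alone had a peak, with a fold of 3.25, a −log10 q of 1.54 and 4 fragments at the summit. That value is at percentile 1.24 of its list, close to the lowest peaks called.

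The other Nox4 region lay inside the gene (chr7:87331234-87331703), with summits up to 84985 bp from the start. It had a fold of 3.98 and 5.17 in siRNA-labelled libraries 2 and 3 and no peak in library 1, against 6.44, 4.18 and 5.55 in the NC-labelled libraries. Its summits held 5 and 7 fragments in the siRNA-labelled libraries, against 10, 6 and 8 in the NC-labelled ones. The groups overlap, and with so few fragments the missing peak in 1 library was not detectable as a difference at this depth.

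Cyba, the p22phox gene (chr8:122424771-122432940, minus strand), had 1 region in all libraries, over its start (chr8:122432487-122433486), and an end of the neighbouring gene Mvd lies within 1 kb of it. The fold was 4.75, 6.87 and 5.60 in the siRNA-labelled and 5.56, 5.47 and 4.92 in the NC-labelled libraries. The −log10 q was 4.90, 9.95 and 6.88 in the siRNA-labelled libraries, against 7.56, 6.44 and 4.72 in the NC-labelled ones. Both sets of values overlap between the groups, and the peak was moderate, with percentiles of 26.7 to 57.8. The summits were spread, at 126, 39 and 88 bp into the gene in the siRNA-labelled libraries and at -214, 172 and -135 bp in the NC-labelled ones. The peaks of NC-labelled libraries 1 and 3 ended at -24 and -44 bp, so there only the merged region covers the start.

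Rac1 (chr5:143505481-143528031) had 6 regions, of which 3 were in all libraries, and both regions left of the gene lie within the neighbouring gene Daglb. The strongest was inside the body (chr5:143517974-143518690), with a fold of 9.06, 10.1 and 10.4 in the siRNA-labelled and 10.3, 9.73 and 9.73 in the NC-labelled libraries. Its −log10 q was 37.9, 45.9 and 52.5 in the siRNA-labelled libraries, against 61.8, 54.9 and 53.0 in the NC-labelled ones. The folds overlapped between the groups, while the −log10 q, which grows with coverage, was higher in every NC-labelled library. Over the right end (chr5:143527584-143528521) the fold was 5.99, 7.22 and 6.52 in the siRNA-labelled libraries, against 7.40, 6.50 and 4.85 in the NC-labelled ones, again with overlap.

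Of the superoxide dismutase genes, Sod2, the mitochondrial enzyme, had the strongest start, and Sod3, the secreted enzyme, had a peak inside its body in all 6 libraries but at an end in only 1. The Sod2 start region (chr17:13007541-13008393) had a fold of 9.68, 9.80 and 8.35 in the siRNA-labelled and 9.55, 9.34 and 10.3 in the NC-labelled libraries. Its −log10 q was 34.6, 36.1 and 32.0 in the siRNA-labelled libraries, against 51.8, 47.0 and 52.3 in the NC-labelled ones. The folds overlapped and the −log10 q did not, with every siRNA-labelled library lower. The summits held 54, 56 and 56 fragments in the siRNA-labelled libraries and 84, 77 and 80 in the NC-labelled ones, and after scaling 65.6, 61.2 and 56.8 against 75.3, 66.1 and 75.5. Every siRNA-labelled library also lay below every NC-labelled one on that scale. All 3 NC-labelled summits lay 173 bp into the gene, while the siRNA-labelled ones lay at 175, 94 and 67 bp.

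Sod1, the cytosolic enzyme (chr16:90220762-90226333, plus strand), had a single region, over its start (chr16:90220367-90221577). The fold was 5.86, 7.74 and 7.30 in the siRNA-labelled libraries, against 7.64, 7.25 and 7.43 in the NC-labelled ones, and siRNA-labelled library 1 was the lowest. The −log10 q was 7.21, 13.5 and 12.4 in the siRNA-labelled and 14.9, 14.6 and 14.5 in the NC-labelled libraries, and was lower in every siRNA-labelled library. Scaled summit fragments overlapped there, at 17.0, 24.0 and 21.3 in the siRNA-labelled libraries and 22.4, 22.3 and 23.6 in the NC-labelled ones. Sod3 (chr5:52363804-52369738) had a region inside the gene (chr5:52365912-52367066) with a fold of 8.83, 8.59 and 7.60 in the siRNA-labelled and 6.27, 7.64 and 7.56 in the NC-labelled libraries, which overlap. Its left end had a peak in NC-labelled library 2 alone, with a fold of 3.39 and 16 fragments.

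Cat, the catalase gene (chr2:103453904-103485153, minus strand), had a high fold over its start (chr2:103484622-103485471). The fold was 8.31, 14.0 and 12.9 in the siRNA-labelled libraries, against 10.7, 14.7 and 12.1 in the NC-labelled ones. The −log10 q was 13.5, 34.4 and 35.1 in the siRNA-labelled libraries, against 26.5, 43.8 and 31.0 in the NC-labelled ones. siRNA-labelled library 1 had 20 fragments at this summit and the other siRNA-labelled libraries 39 and 43, and both measures overlapped between the groups. A weaker region (chr2:103464548-103465302), with summits 20290 to 20360 bp into the gene, was also present in all 6 libraries, with folds between 6.11 and 8.65.

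**Figure D3:**
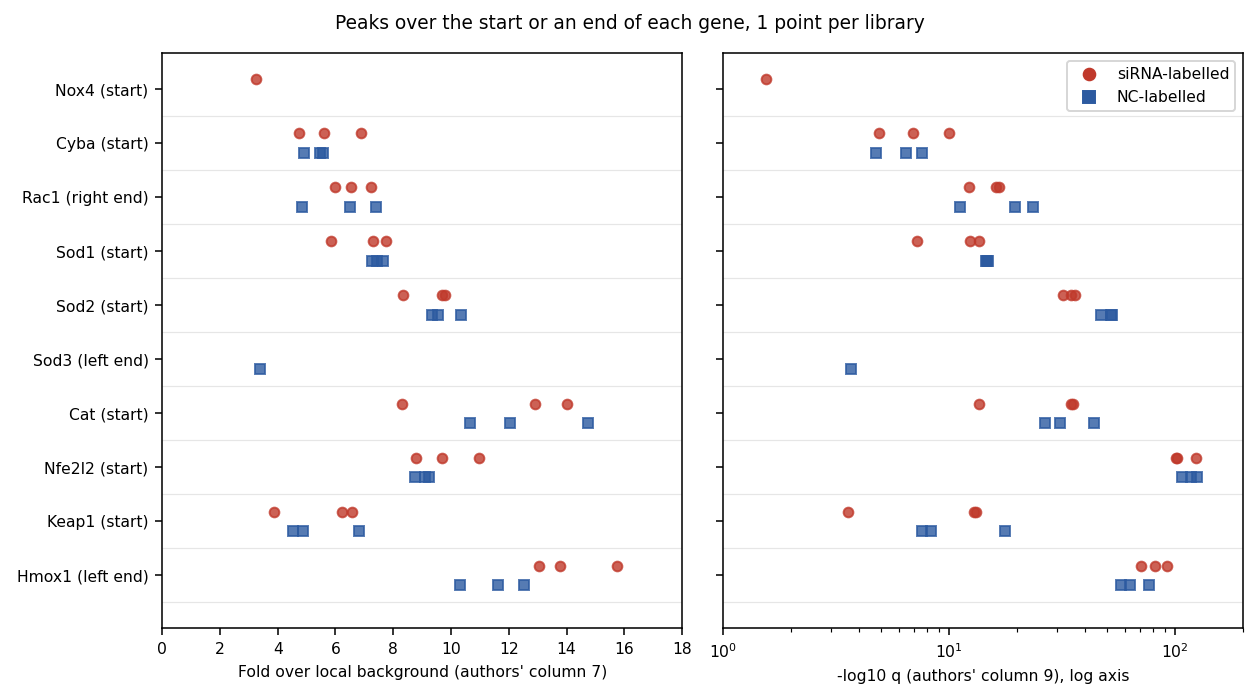
Fold over local background (left panel, linear axis) and −log10 q (right panel, log axis) of the highest peak in the region over each gene's start or an end. Each point is 1 library, with siRNA-labelled libraries as red circles above NC-labelled ones as blue squares. The fold groups are separate at Hmox1, where siRNA-labelled libraries lie between 13.0 and 15.7 and NC-labelled ones between 10.3 and 12.5, and the points of Nox4 and Sod3 are single libraries.

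Nfe2l2, which encodes NRF2, had the Arid3a region with the highest −log10 q and the greatest width of the 10 genes, and the largest number of regions, 8. The region over its start (chr2:75703484-75705026, 1543 bp; gene chr2:75675513-75704663, minus strand) had a fold of 10.95, 9.67 and 8.79 in the siRNA-labelled and 9.10, 9.23 and 8.74 in the NC-labelled libraries. Its −log10 q was 123.5, 100.9 and 102.2 in the siRNA-labelled libraries, against 117.3, 125.4 and 106.7 in the NC-labelled ones. Both measures overlapped between the groups, and the peak was at or above percentile 99.0 of every list. The summits held 189, 167 and 181 fragments in the siRNA-labelled libraries and 203, 215 and 190 in the NC-labelled ones. Of the 6 summits, 5 fell 320 to 327 bp into the gene, and that of siRNA-labelled library 3 fell at 583 bp, beyond the 50 bases of gene in the promoter sequence printed above.

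Inside Nfe2l2, 3 further regions were present in all 6 libraries. The one at chr2:75688856-75689755 had 14, 23 and 24 fragments at its summit in the siRNA-labelled libraries, against 38, 34 and 28 in the NC-labelled ones. These summits lay 15124, 15556 and 15598 bp into the gene in the siRNA-labelled libraries, against 15422, 15601 and 15410 bp. The values there were thus not all taken at the same place, that of siRNA-labelled library 1 least of all. The one at chr2:75682883-75683489 had 16, 17 and 17 in the siRNA-labelled libraries, against 24, 31 and 27 in the NC-labelled ones. At both, the siRNA-labelled libraries lay below the NC-labelled libraries, before and after scaling. The one between them (chr2:75685376-75686134) had 35, 36 and 44 fragments in the siRNA-labelled libraries, against 49, 52 and 44 in the NC-labelled ones, and scaled values of 42.5, 39.4 and 44.6 against 43.9, 44.7 and 41.5, which overlap.

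Keap1, the adaptor that targets NRF2 for degradation (chr9:21229730-21239332, minus strand), had a moderate and variable start peak (chr9:21238488-21239558). The fold was 3.88, 6.57 and 6.22 in the siRNA-labelled libraries, against 4.87, 6.80 and 4.53 in the NC-labelled ones, and the −log10 q was 3.55, 13.1 and 12.9 against 8.27, 17.7 and 7.55. Values overlapped, and percentiles ran from 15.7 to 70.8. Beyond the gene's other end, a region (chr9:21225051-21225628) had folds of 6.27, 7.51 and 7.83 in the siRNA-labelled and 4.27, 6.50 and 7.03 in the NC-labelled libraries. The member region closest to one-sided lay 8889 bp upstream, over the neighbouring gene S1pr5 (chr9:21248221-21248885). It had a fold of 4.27, 7.55 and 6.86 in the siRNA-labelled libraries, against 5.29 in NC-labelled library 1 and no peak in NC-labelled libraries 2 and 3.

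**Figure D4:**
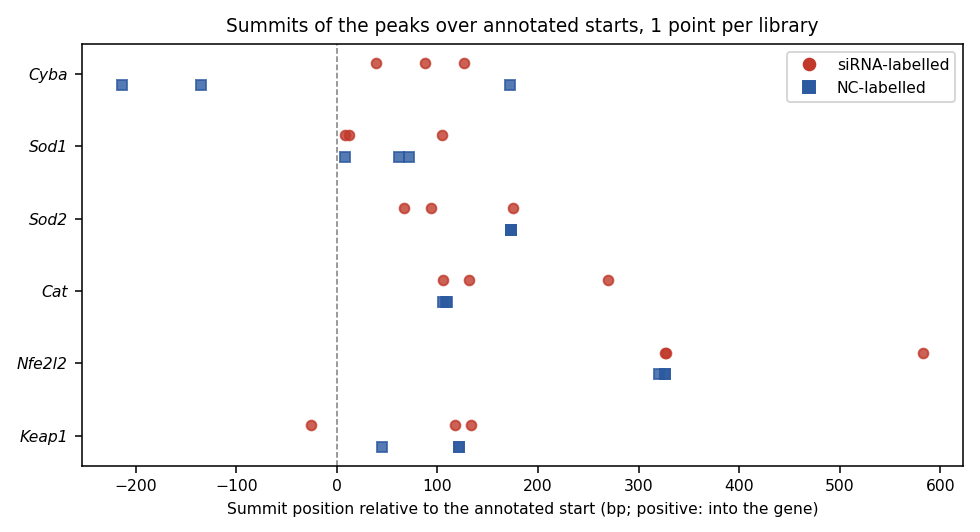
Position of the peak summit relative to the annotated start (horizontal axis, bp, positive into the gene) in each library with such a peak, for the 6 genes with a start peak in all libraries, siRNA-labelled as red circles above NC-labelled as blue squares. The Nfe2l2 summits lie deepest, at 320 to 583 bp, and those of Cyba spread from -214 to 172 bp.

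Hmox1, the NRF2 target that degrades heme (chr8:75093618-75100593), had the most regions found in all 6 libraries per length of window: all 4 of its regions were, which is 1.48 per 10 kb, against a median of 0.194 and an upper quartile of 0.428 over protein-coding genes. The strongest lay over the left end (chr8:75093508-75094134), with summits 84 to 150 bp into the gene. Its fold was 13.0, 15.7 and 13.8 in the siRNA-labelled libraries, against 10.3, 11.6 and 12.5 in the NC-labelled ones. Its −log10 q was 70.5, 92.3 and 81.8 in the siRNA-labelled libraries, against 57.7, 63.3 and 76.5 in the NC-labelled ones. The folds did not overlap between groups, with every siRNA-labelled library higher, whereas the −log10 q did. How often folds separate so over all regions is not given here. The summits held 94, 111 and 106 fragments in the siRNA-labelled libraries and 89, 90 and 105 in the NC-labelled ones, or 114, 121 and 108 against 79.8, 77.3 and 99.1 after scaling. A further region (chr8:75109080-75109956) reached folds of 11.7, 14.3 and 11.2 in the siRNA-labelled and 11.6, 11.7 and 10.4 in the NC-labelled libraries, but it lies over the neighbouring gene Mcm5.

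The difference between the groups was tested with limma on log2 scaled summit fragments over all 29602 regions with a peak in every library. With the Benjamini-Hochberg adjusted p under 0.05, 0.122% of these regions were lower and 0.0912% higher in the siRNA-labelled libraries. Of the 22 regions at the 10 genes, 0 passed in either direction. These calls rest on limma's trend of the variance on the mean, and without it 0 regions passed anywhere. At an unadjusted p under 0.05, 2 of the 22 passed, against 3350 of all regions (11.3%). The median log2 difference of the 22 was -0.04, against -0.00 over all regions, and it ran from -0.45 to 0.45. Of the 22, 13 were below 0, against 50.2% of all regions.

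The smallest p of the 22 was at the left end of Hmox1. Its log2 difference was 0.43 (SE 0.11, 95% interval 0.20 to 0.66, higher in 3 of 3 siRNA-labelled libraries), with an unadjusted p of 0.000446 and a limma adjusted p of 0.095, which does not pass. Over the 13 alternatives the difference ran from 0.13 to 0.54 and the adjusted p from 0.0411 to 0.513. It passed in 3 of them, among these scaling by background coverage (0.53, adjusted p = 0.0411) and the fit without siRNA-labelled library 1 (0.43, adjusted p = 0.0442). With siRNA-labelled libraries 2 and 3 counted as 1 sample the adjusted p was 0.168. Leaving out any other single library gave adjusted p from 0.0903 to 0.395, and the fit without the variance trend gave 0.447. The Nfe2l2 region at chr2:75688856-75689755, whose summits spread over 477 bp, had a log2 difference of -0.45 (SE 0.20) and a limma adjusted p of 0.382. The Sod2 start had one of -0.24 (SE 0.13) and an adjusted p of 0.496.

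At the Nfe2l2 start the log2 difference was 0.12, with a 95% interval of -0.06 to 0.30 and a limma adjusted p of 0.662. A missed threshold there does not show equal occupancy, but the interval bounds the difference more closely than at the Cyba start, where it was 0.45 with an interval of -0.05 to 0.95 at summits of 10 to 17 fragments. Scaled summit fragments did not overlap between the groups at 4 of the 22 regions. Every siRNA-labelled library was lower at 3 (the Sod2 start and both Nfe2l2 regions named above), where 8.12% of all regions were, and higher at 1 (the left end of Hmox1), where 7.72% were.

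**Figure D5:**
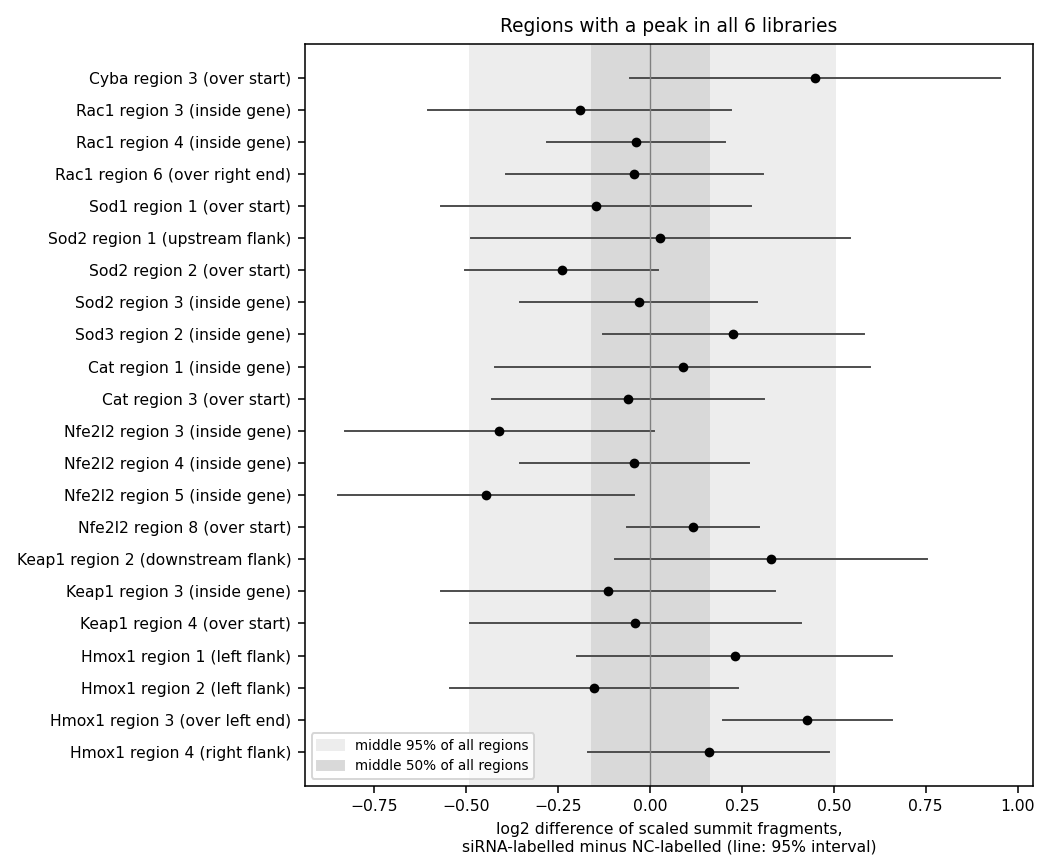
Difference in log2 scaled summit fragments, siRNA-labelled minus NC-labelled (horizontal axis; points with 95% intervals from limma), for the 22 regions with a peak in all 6 libraries, with regions numbered from left to right in each window. Grey bands hold the middle 50% and 95% of the differences of all 29602 regions; the points of the 22 run from -0.45 to 0.45, and all lie within the wider band.

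Other genes of the same pathways were described from 4 lists, 63 genes in all, and 47 had a peak near the start in all 6 libraries, 9 in none and 7 in some, against 46.0%, 42.5% and 11.5% of 17492 protein-coding genes. Of the other oxidase genes, 3 of 15 had a start peak in all libraries and 7 in none, among them Nox1, Cybb and Nox3, which are other catalytic subunits. Of the other lists, 17 of 20 peroxide and thiol enzymes, 15 of 16 genes of glutathione, NADPH and NRF2 targets, and 12 of 12 regulators of NRF2 had one in all 6 libraries. Noxa1, an activator subunit of the oxidase, had a start peak in no siRNA-labelled library and in NC-labelled libraries 2 and 3.

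The windows of these genes held 313 regions, counted gene by gene, so that a region in overlapping windows counts more than once. Of these, 1 was found in every siRNA-labelled library but in none of the NC-labelled ones, and 5 the reverse, where 0.342% and 0.608% of all regions were. The share found in the NC-labelled libraries only lay above that of all regions, and the other share was near it. The counts are small and were not tested, and the regions are given as a description. Both kinds occurred inside Sh3pxd2a, an organizer of the oxidase. The region found in the siRNA-labelled libraries (chr19:47368849-47369248) had folds of 6.12, 4.33 and 3.82, and the one found in the NC-labelled libraries (chr19:47319827-47320275) had folds of 2.34, 2.23 and 2.16. Other regions found in the NC-labelled libraries only lay inside Cul3, the ubiquitin ligase scaffold that works with Keap1, with folds of 5.00, 3.77 and 4.50, and outside Gstm1 and Txn2. Over all the one-sided regions of these genes, those of Sh3pxd2a included, the summits held 9 to 36 fragments.

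In the limma fit, 129 regions of these genes that are not shared with the 10 genes were tested, and 1 passed lower, where 0.122% of all regions did, and 0 higher, where 0.0912% did. At an unadjusted p under 0.05 there were 14, or 10.9%, against 11.3% of all regions. The median log2 difference was 0.01. The region that passed, singled out after its values were seen, covers the right end of Nfe2l1 (chr11:96829404-96830540), the gene of the NRF2 relative NRF1. Its scaled summits were 134, 108 and 114 fragments in the siRNA-labelled libraries, against 152, 164 and 163 in the NC-labelled ones. The log2 difference was -0.44 (SE 0.10), lower in 3 of 3 siRNA-labelled libraries, with a limma adjusted p of 0.0358. It passed in 5 of 13 alternatives, with adjusted p between 0.000874 and 0.435.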

How the data were processed

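CUT&Tag peak lists of 6 libraries were used, 1 list per library. Per the submitters' processing notes, Bowtie2, Picard and MACS2 were used with mm10; no version or option is given in the sources used here. The authors deposited, peak by peak, the interval and summit, an integer score, a fold enrichment (a ratio) over the library's own local background, and −log10 p-values and q-values. The score was not used.

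The 10 genes and the lists were chosen with earlier results of these data known. Gene positions came from RefSeq on GRCm38.p6; strand was used for 7 of the 10 genes, and no exons. Full values are given for the region over each start or end, the region of highest smallest percentile, one-sided regions and those past the test. Pathway genes are named for one-sided regions or start peaks that differ by 2 libraries, at most 6, and 1 of them is not reported here.

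The number of fragments at each summit was solved from the deposited fold and −log10 p (pseudocount 1, relative tolerance 0.002; 100% of peaks solved), divided by the library's median ratio over regions found in all 6 libraries, and tested on the log2 scale with limma 3.58.1 in R 4.3.3, with Benjamini-Hochberg adjustment over 29602 regions. The fragments are counting data without molecular identifiers. limma's variance trend was adopted after the fit without it had missed changes planted in data simulated from these libraries, and before calls on the real values were read. The simulated counts were Poisson around each region's mean, with no further variation between libraries. They therefore cannot show how either fit behaves where libraries vary more than that. The fit without the trend is an alternative. siRNA-labelled libraries 2 and 3, which carry different siRNAs per the labels, were kept as 2 samples, and their average is an alternative. Percent of promoters with a motif used both strands. Other alternatives changed the peak threshold, overlap, window, scaling, filter, pseudocount, block and libraries. Python 3.11.15, pandas 2.3.3 and scipy 1.17.1 were used.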

Additional observations from a re-analysis of the deposited data

How the results depend on the processing

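The 22 member regions found in all 6 libraries became 13 when peaks had to cover 50% of a region; it was 22 or 23 with any 1 library left out. With −log10 q of at least 5, 1 region (Nfe2l2, chr2:75682883-75683489) was found in the NC-labelled libraries only, and without NC-labelled library 1, 1 region (over S1pr5) was in the siRNA-labelled ones only; leaving out libraries gave 0 to 1.

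limma's calls over all regions, 36 lower and 27 higher, depended on the setting. They were 0 and 0 without the variance trend, with 2935 regions at an unadjusted p under 0.05, so every call rests on that trend. The trend was itself the later choice, adopted after the fit without it had missed changes planted in simulated data. The fit without the trend was listed as an alternative only after the data were seen. The calls were 8 lower and 71 higher with background scaling, and 2957 and 4 without scaling. With the replicate block the calls were 83 and 61, and with siRNA-labelled libraries 2 and 3 as 1 sample 22 and 10. With 1 library left out the calls ran from 4 to 218 lower and from 5 to 153 higher. The highest of both came without siRNA-labelled library 1 and the lowest without NC-labelled library 1. Among the 22 member regions, 3 were called lower without scaling, which shifts the median of all regions to -0.30, and none otherwise; 1 (Hmox1, left end) was called higher with background scaling, which shifts it by 0.10, with the block (adjusted p = 0.0495, of 0.0411 to 0.513 over the alternatives), and without siRNA-labelled library 1 (0 to 1 with any 1 library left out). The cause of these changes was not tested.

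Directions reversed, with no call, at the Rac1 region inside the gene (0.060 with background scaling; -0.084 to 0.0093 with 1 library left out), the Rac1 right end (0.056; -0.16 to 0.056), Sod3 (-0.069 without scaling), the Cat start (0.040 with background scaling; -0.21 to 0.22 with 1 library left out), the Nfe2l2 start (-0.18 without scaling) and the Keap1 start (0.059 with background scaling; -0.21 to 0.27 with 1 library left out). Same-numbered libraries did not deviate together (r = 0.04, 0.03 and -0.02), and not every library correlated best with its own number. These values give no evidence that the numbers pair the libraries, but such small correlations at this depth cannot exclude a pairing. Depth limits the member intervals: their median SE on the log2 scale was 0.20.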
